A study of Danio rerio with 25 samples.

Results

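The comparison described here is day 7 against day 5 of a dexamethasone (DEX) time course in zebrafish (Danio rerio) larvae, the late part of the course taken as a step of 2 days. It used the 3 libraries labelled day 5 (D5) and the 3 labelled day 7 (D7), 6 of the 25 libraries of the series, chosen by their labels alone. DEX is a synthetic glucocorticoid, and the D5 and D7 groups were both exposed to it, at 10 µM according to the methods. The methods name the exposed larvae as the transgenic line Tg(Ola.Sp7:nlsGFP), which carries a green fluorescent protein under the sp7 promoter. RNA was taken from whole larvae, so each value is an average over all tissues. The labels count days after DEX, whereas the methods give the sampling ages as days after fertilization, so the length of exposure at each day is not certain. The methods start exposure on day 3, so the day 3 libraries (D3) used below may have had little of it. No vehicle library of these days was analysed here, and the effect of DEX and the ordinary growth of a larva over the same days therefore cannot be told apart in any value below.

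Glucocorticoids enter cells and bind the glucocorticoid receptor, which then acts as a transcription factor on genes of metabolism, immunity and stress. In vertebrates prolonged exposure is known for breakdown of muscle protein through the ubiquitin-proteasome system and autophagy, for raised amino acid catabolism and glucose output by the liver, and for loss of bone through reduced matrix production. The zebrafish larva at these ages lays down its head skeleton, uses up its yolk and begins to depend on feeding, and the study used it as a model of glucocorticoid-induced osteoporosis.

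The 6 libraries held between 13685297 and 16789885 counts, and genes are given below as CPM, read counts scaled to a common library size, with the TMM method correcting for differences in library composition. The replicates carried the letters a, b and c. Within a day the a and b libraries were alike, with a root mean square difference of 0.39 on D7 and 0.45 on D5 on the log2 CPM scale, while the c library stood apart from both by 0.87 to 1.13. Each gene was fitted over all 15 DEX libraries of 5 days with the letter as a block, a term that removes what libraries of the same letter share. A gene is called higher or lower here when its p from edgeR's quasi-likelihood test, adjusted over all genes tested, was below 0.05. Nothing states that the letters were separate clutches. The p-values measure the spread that the day and letter terms leave between the 15 libraries, and that spread may be technical. Markers of the tissues of a whole larva were present, with 43 fast muscle, 41 liver plasma protein, 30 neuron and 25 lens genes passing the filter on low counts. Values are listed in the order a, b, c, and the fold changes are log2 (D7 over D5) from the fit with their standard error (SE).

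Between D5 and D7 1513 of 21750 genes tested were called, 6.96%, of which 784 (3.6%) were higher on D7 and 729 (3.35%) lower. The median log2 fold change was 1.05 for the genes called higher and -1.23 for those called lower, against -0.01 over all genes tested, and 438 called genes rose and 521 fell by more than 1 on the log2 scale. Of the called genes, 1507 (99.6%) moved in the same direction in a, b and c, and for 1307 the 3 D5 values and the 3 D7 values did not overlap, which was the case for 4637 of all genes tested (21.3%). The genes were called on these same libraries, so both counts describe the called genes and are no test. At an unadjusted p below 0.05 there were 4787 genes. Without the block 497 genes were called, all among the 1513. With every c library left out 3745 of 21643 genes were called, 1664 higher and 2081 lower, and 1445 of them were shared. DESeq2, an alternative test, called 1203 higher and 1165 lower of 21750. The list counts given below for these other fits stand beside these totals, and not beside 3.6% and 3.35%. Leaving out D5 a gave 643 calls, D5 b 445, D5 c 972, D7 a 468 and D7 b 592.

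**Figure D1:**
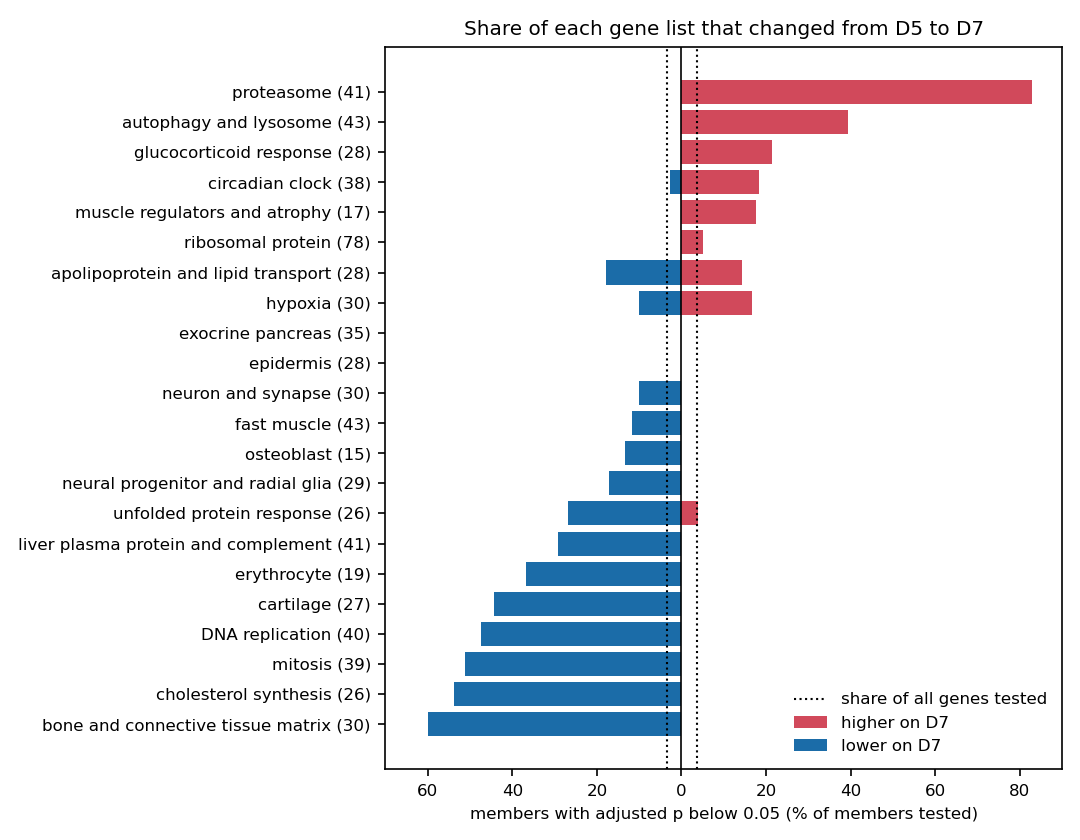
Share of the tested members of each gene list called higher (right) or lower (left) on D7 than on D5, in percent, with the number tested after each list name. Dotted lines mark the share over all genes tested, 3.6% higher and 3.35% lower. Proteasome subunits stand furthest to the right, with 34 of 41 called higher, and bone and connective tissue matrix furthest to the left, with 18 of 30 called lower.

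Genes of protein degradation were higher on D7. The proteasome is the barrel-shaped protease that destroys ubiquitin-tagged proteins, built from a core of alpha and beta rings and a regulatory cap. Of 41 subunit genes tested 34 were called higher on D7 (82.9%, beside 3.6% over all genes). All 41 had a higher fitted value, and their median log2 fold change was 1.24. The median was 1.42 in the a libraries, 1.27 in b and 1.01 in c, and the count was 28 without the block, 38 without the c libraries, and 28 to 35 when any of the 6 libraries was left out.

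Among cap subunits, psmc1b, an ATPase that helps unfold substrates, was at 54.7, 51.2 and 88.5 CPM on D5 and at 322, 244 and 269.7 CPM on D7. Its log2 fold change was 2.15 ± 0.23 (SE, 3 against 3 libraries; adjusted p = 0.000306). PSMD11 (ENSDARG00000005134), a scaffold subunit of the cap, went from 42.1, 42.2 and 55.3 to 144, 129 and 139 CPM, a change of 1.57 ± 0.16 (adjusted p = 0.000306). For both genes the lowest D7 library lay well above the highest D5 library. PSMD14, the cap enzyme that clips ubiquitin chains from substrates, had 62.4, 56.2 and 84 CPM on D5 and 219.6, 180.0 and 217 CPM on D7.

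In the core, PSMA6 (ENSDARG00000019398), an alpha ring subunit, was at 42.6, 37 and 35.1 CPM on D5 and 139.9, 112 and 92.7 CPM on D7 (1.58 ± 0.19, adjusted p = 0.000529). The alpha ring subunit PSMA2 rose from 52.9, 44.4 and 41.9 to 133, 114 and 102 CPM, and the beta ring subunit PSMB4 from 104, 92.1 and 128 to 450.0, 350.3 and 341 CPM. None of these D5 and D7 values overlapped. The remaining called subunits had log2 fold changes between 0.76 (PSMC1, an ATPase of the cap) and 1.93 (PSMA5, of the alpha ring). Other genes tied to ubiquitin lay outside the list. USP14, a deubiquitinase that binds the cap, went from 40, 39.8 and 55.1 to 145, 119.8 and 130.0 CPM (1.56 ± 0.17, adjusted p = 0.000379), and UBFD1, which carries a ubiquitin-like domain, from 11.1, 9.61 and 15.3 to 47, 42.9 and 53 CPM (1.996 ± 0.19, adjusted p = 0.00023).

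**Figure D2:**
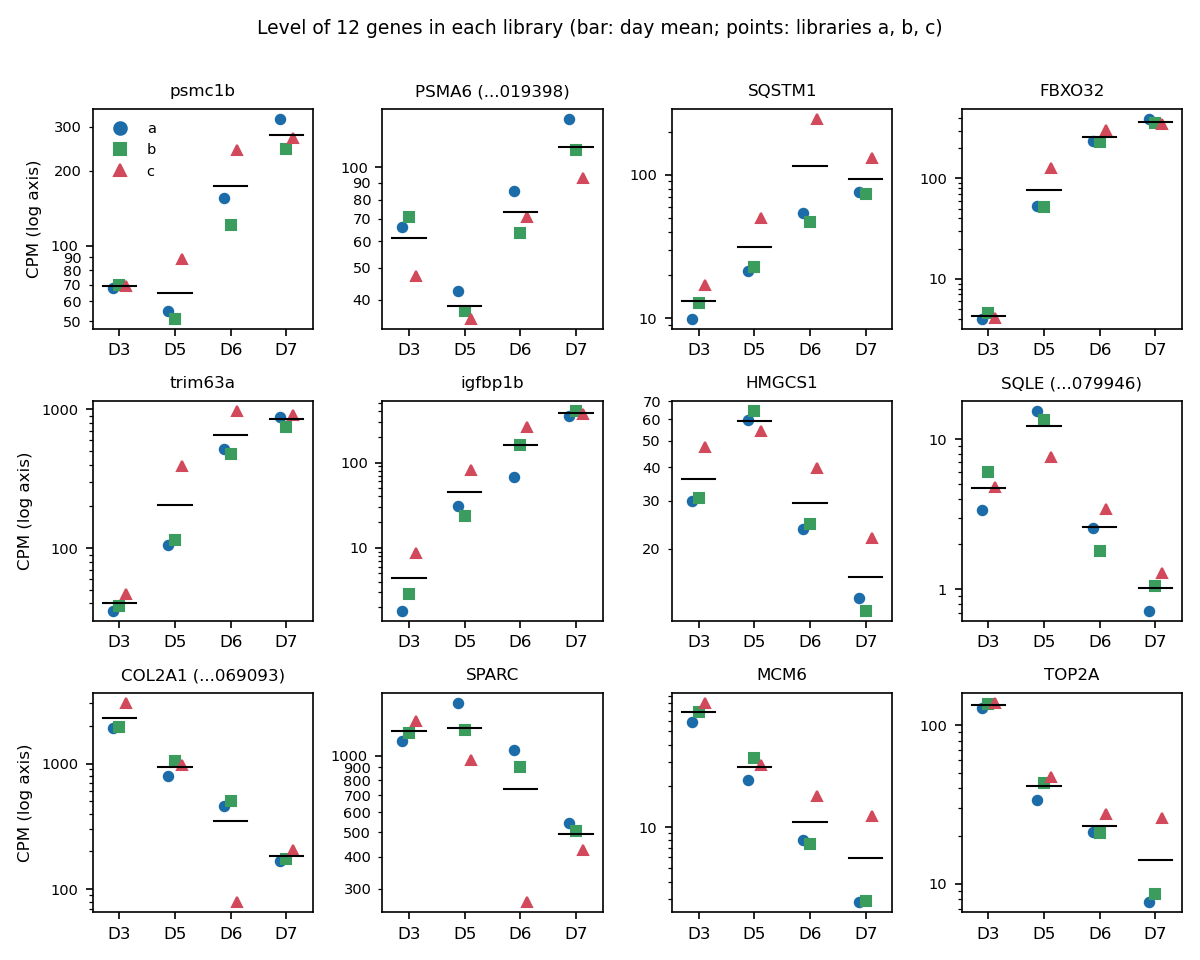
CPM (log axis) of SPARC, PSMA6, TOP2A, trim63a, igfbp1b, FBXO32, psmc1b, HMGCS1, MCM6, COL2A1, SQSTM1 and SQLE on D3, D5, D6 and D7, with the a, b and c libraries as points and the day mean as a bar. The D5 and D7 points of psmc1b, FBXO32, igfbp1b and HMGCS1 do not overlap, and the c point of several genes on D5 lies apart from a and b.

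Autophagy, which delivers cell contents to the lysosome, had the same direction. Of 43 autophagy and lysosome genes tested 17 were called higher, beside 3.6% over all genes, 41 had a higher fitted value and the median was 0.67. Without the block the count was 5, without the c libraries 25, and it fell to 8 without D5 a, 6 without D5 b, 7 without D7 a and 9 without D7 b.

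SQSTM1, the p62 receptor that brings ubiquitin-tagged cargo to autophagosomes, was at 21.2, 22.8 and 49.8 CPM on D5 and 75.4, 73.5 and 130.0 CPM on D7 (1.65 ± 0.29, adjusted p = 0.00474). ATG14, which directs the lipid kinase complex that starts an autophagosome, went from 33.6, 31.7 and 65.2 to 88.2, 88.5 and 125 CPM (1.26 ± 0.18, adjusted p = 0.00194). In both genes the D5 c library lay above D5 a and b, and the calls were lost without the block. The membrane protein gene atg9b, at 52.1, 43.8 and 70.7 CPM on D5 and 116, 116 and 139 CPM on D7, and gabarapb, an ATG8-type protein that coats autophagosomes, at 192, 144 and 232 and 472, 497 and 443 CPM, kept their calls without the block and without any of the 6 libraries. Other called members, named after their values were seen, include MAP1LC3A (1.09), a further ATG8-type gene, ulk1a (1.11), the kinase at the start of autophagy, and the lysosomal membrane gene LAMP1 (1.37).

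The ubiquitin ligases that mark muscle protein for destruction in wasting muscle were higher on D7. trim63a, the zebrafish MuRF1 gene, was at 105, 114 and 392 CPM on D5 and 874, 751 and 914 CPM on D7, a log2 fold change of 2.29 ± 0.31 (adjusted p = 0.00115). FBXO32, which encodes atrogin-1, went from 53.8, 52.5 and 126 to 393, 355 and 352 CPM (2.29 ± 0.32, adjusted p = 0.00135). The D5 c library was above D5 a and b for both genes but below every D7 library, and both calls held without the block, without the c libraries and without any of the 6 libraries. MYF6, a transcription factor of the muscle lineage, rose from 4.93, 4.6 and 3.12 to 14.4, 13.2 and 15 CPM (1.74 ± 0.30, adjusted p = 0.00449). These were the 3 of 17 muscle regulator and atrophy genes called (17.6%, beside 3.6% over all genes), and the median of that list was 0.03.

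Ribosomal protein genes were shifted together but by less. Of 78 tested 77 had a higher fitted value on D7, with a median of 0.67 and a range from -0.01 to 0.88, yet 4 were called higher, 5.13% beside 3.6% over all genes. RPL38, for instance, was at 337, 252 and 239.7 CPM on D5 and 522, 483 and 469 CPM on D7 (0.84 ± 0.21, adjusted p = 0.0278). DESeq2 called 54 of them, while without the block edgeR called 0. At an unadjusted p below 0.05 edgeR with the block had 70 of the 78.

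The glucocorticoid response list holds 28 tested genes that the receptor is known to induce in vertebrates. Of these 6 were called higher from D5 to D7 (21.4%, beside 3.6% over all genes), 23 had a higher fitted value and the median was 0.22. By letter the median was 0.44 in a and 0.73 in b but -0.003 in c. The 6 were IGFBP1, TAT, LPIN1, zbtb16b, CEBPD and KLF9. Without the block 1 was called, without the c libraries 12 were called higher and 2 lower, and the count was 3 without D5 b or D7 a and 4 without D5 a or D7 b.

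TAT, the first enzyme of tyrosine breakdown, was at 70.9, 61.5 and 105 CPM on D5 and 217, 264 and 515 CPM on D7 (1.98 ± 0.33, adjusted p = 0.00373). LPIN1, a phosphatidate phosphatase of lipid synthesis that also acts with transcription factors, went from 103, 141 and 214 to 364, 362 and 575 CPM (1.53 ± 0.27, adjusted p = 0.00497). KLF9, a transcription factor induced by the receptor, went from 93.2, 97.2 and 187 to 248, 236 and 212 CPM (0.96 ± 0.22, adjusted p = 0.0195). For these genes the D5 c value was the highest of its day, and the TAT and LPIN1 calls were lost without the block. FKBP5, the co-chaperone that restrains the receptor, was at 594, 643 and 1103 CPM on D5 and 657, 721 and 257 CPM on D7, so its a and b libraries differed little between days while D7 c was the lowest of the 6 (-0.39 ± 0.38, adjusted p = 0.607). The receptor gene itself, NR3C1, had 49.9, 54.3 and 64.8 CPM on D5 and 63.5, 63.6 and 88.3 CPM on D7 (adjusted p = 0.202).

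Genes of fasting moved in both directions, with 4 of 22 called higher (18.2%) and 3 lower (13.6%), beside 3.6% and 3.35% over all genes. Their median was 0.05. Without the block 1 and 2 were called, and without D7 a or D7 b 3 and 1. igfbp1b, an insulin-like growth factor binding protein that rises in fasted and catabolic fish, was at 31.3, 23.4 and 81.7 CPM on D5 and 356, 406 and 368 CPM on D7 (3.31 ± 0.39, adjusted p = 0.000529). Its paralog IGFBP1 went from 20.1, 31.5 and 84 to 166, 195 and 171 CPM (2.26 ± 0.36, adjusted p = 0.00286), a call lost without the block. All D7 values of both genes were above all D5 values. pck2, a gluconeogenic enzyme of mitochondria, fell from 242, 302 and 248 to 108, 91.8 and 106 CPM, and PYGL, which releases glucose from liver glycogen, from 53.5, 64.2 and 50.5 to 30.6, 29.5 and 27.5 CPM, though PYGL was not called without the block, D7 a or D7 b. The growth hormone receptor gene ghrb was higher on D7, at 110.2, 90 and 153 CPM against 40.6, 43.6 and 65.9 CPM (1.24 ± 0.22, adjusted p = 0.00538).

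Genes of cholesterol synthesis were lower on D7. Cells build cholesterol from acetyl-CoA through mevalonate and squalene. Of 26 genes tested 14 were called lower (53.8%, beside 3.35% over all genes), 22 had a lower fitted value and the median was -0.97. Without the block 9 were called lower. Without the c libraries 17 were called lower and 3 higher, and 8 were called lower when D5 a, D5 b, D7 a or D7 b was left out.

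SQLE (ENSDARG00000079946), which oxidizes squalene, went from 15.4, 13.5 and 7.57 to 0.722, 1.06 and 1.28 CPM (-3.55 ± 0.41, adjusted p = 0.000449). HMGCS1, which forms the precursor of mevalonate, went from 59.5, 64.5 and 54.1 to 13.2, 11.8 and 22 CPM (-1.99 ± 0.26, adjusted p = 0.00108). For neither gene did D5 and D7 overlap, and both calls held without the block, without the c libraries and without any of the 6 libraries. Later steps fell as well, with LSS, which forms the first ring structure, from 6.34, 6.5 and 4.65 to 0.361, 0.493 and 1.58 CPM, MSMO1, a sterol oxidase, from 89.5, 64.4 and 39.4 to 25.8, 25.6 and 27.8 CPM, and SC5D, a sterol desaturase, from 10.4, 7.6 and 7.97 to 2.24, 2.54 and 2.26 CPM. CYP51A1, the demethylase that follows LSS, did not match its list entry and is not in the count; it was at 82.3, 86.3 and 65.6 CPM on D5 and 8.16, 4.86 and 13.8 CPM on D7 (-3.21 ± 0.34, adjusted p = 0.000306).

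Genes of the skeletal and connective tissue matrix were lower on D7. Of 30 bone and connective tissue matrix genes tested all 30 had a lower fitted value on D7 and 18 were called (60%, beside 3.35%), with a median of -1.35. The median was -1.41 in a, -1.66 in b and -0.90 in c. Calls numbered 7 without the block and 23 without the c libraries, and 10 without D5 a, 4 without D5 b, 4 without D7 a and 5 without D7 b. Of 27 cartilage genes tested all 27 had a lower fitted value and 12 were called (44.4%), with a median of -1.70. Here the calls numbered 5 without the block, 21 without the c libraries, and 4, 2 and 6 without D5 a, b and c and 1, 1 and 5 without D7 a, b and c. In whole larvae fewer cells of a type and less RNA per cell cannot be told apart, which holds for every tissue list given here.

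Among matrix genes, THBS4 (ENSDARG00000102777), a thrombospondin of tendon and its muscle attachments, was at 12.4, 14 and 23.3 CPM on D5 and 3.68, 2.68 and 5.04 CPM on D7 (-2.12 ± 0.27, adjusted p = 0.000891). COL6A2, a chain of the microfibril-forming collagen VI, went from 68.6, 82.2 and 68 to 17.5, 19.7 and 32.1 CPM (-1.69 ± 0.30, adjusted p = 0.00506). LOXL2, which cross-links collagen, went from 23, 32.6 and 36.2 to 8.52, 6.91 and 20.4 CPM (-1.46 ± 0.24, adjusted p = 0.00355) and was not called without the block. In each the c library of D7 was the highest of its day, yet below every D5 library. col1a1a, a chain of collagen I, the main fibre of bone and skin, named here after its values were seen, went from 665, 859 and 1293 to 90.7, 86.8 and 408 CPM (-2.52 ± 0.56, adjusted p = 0.0164). POSTN (ENSDARG00000104267), periostin, went from 340.0, 422 and 311 to 64.8, 62.4 and 142 CPM. SPARC, a collagen-binding protein of bone that the study follows, was at 1619, 1265 and 960.3 CPM on D5 and 545, 508 and 426 CPM on D7 (-1.36 ± 0.35, adjusted p = 0.0347). Its D5 and D7 values did not overlap, but its adjusted p was 0.085 without the block and 0.0691 to 0.151 when any of the 6 libraries was left out.

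In cartilage, hapln1a, the link protein that ties hyaluronan to proteoglycan, was at 72.7, 90.9 and 36.7 CPM on D5 and 15.9, 14.4 and 11.7 CPM on D7 (-2.15 ± 0.30, adjusted p = 0.00133). MATN4, a matrilin of the cartilage matrix, went from 317, 363 and 291 to 92, 83.4 and 96 CPM (-1.82 ± 0.38, adjusted p = 0.0121). COL2A1 (ENSDARG00000069093), the main cartilage collagen, went from 795, 1047 and 982 to 168, 175 and 205 CPM (-2.37 ± 0.59, adjusted p = 0.0287). None of these values overlapped between days. The MATN4 call was lost without D5 b, D7 a or D7 b. The COL2A1 call was lost without the block (adjusted p = 0.0581) and without any of the 6 libraries (0.0605 to 0.123). A further gene with the same symbol, COL2A1 (ENSDARG00000011407), was at 219, 278 and 290.4 CPM on D5 and 58, 55.6 and 175 CPM on D7 (adjusted p = 0.0853).

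The cells that make and remove bone showed fewer calls than the matrix. Of 15 osteoblast genes tested 2 were called lower (13.3%, beside 3.35% over all genes), or 6 without the c libraries. The median was -0.29. COL10A1 (ENSDARG00000054753), a collagen of hypertrophic cartilage and, in fish, of bone-forming cells, fell from 240.1, 226 and 159.8 to 37, 36.3 and 38.4 CPM (-2.47 ± 0.47, adjusted p = 0.00756), and ENTPD5, which zebrafish need to mineralize bone, from 7.56, 7.94 and 5.91 to 1.3, 0.705 and 2.93 CPM (-2.25 ± 0.52, adjusted p = 0.0205). The COL10A1 call was lost without D7 a, and the ENTPD5 call without the block and without D5 a, D5 b, D7 a or D7 b. SP7, the osteoblast transcription factor, was at 5.25, 3.45 and 3.19 CPM on D5 and 2.31, 1.62 and 3.31 CPM on D7 with overlap (adjusted p = 0.261). Of 35 macrophage and osteoclast genes 1 was called higher, 2.86% beside 3.6% over all genes. It was TCIRG1 (ENSDARG00000016835), a proton pump subunit through which osteoclasts acidify bone, at 16.3, 15.7 and 28.7 CPM on D5 and 31.5, 38.7 and 42.3 CPM on D7 (0.92 ± 0.20, adjusted p = 0.0132), a call lost without the block and without D5 a, D5 b or D7 b. The osteoclast protease gene CTSK had 25.2, 23.8 and 27.3 CPM on D5 and 30.8, 27.6 and 53.3 CPM on D7 (adjusted p = 0.211). ACP5, the osteoclast acid phosphatase, was at 3.01, 3.97 and 2.19 CPM on D5 and 3.18, 3.95 and 1.88 CPM on D7 (adjusted p = 0.964).

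Of 18 genes in a list drawn up around the study, 1 was called higher (SQSTM1, 5.56%) and 2 lower (SPARC and COL2A1, 11.1%). The study's text does not name all of them, SQSTM1 being among those it leaves out. The shares over all genes were 3.6% and 3.35%, and without the block 0 of the 18 were called. Those that the study names were chosen in part on these libraries, and the values of the list are no independent evidence of a direction. cdkn1a, the cell cycle inhibitor at the centre of the study, was at 11.1, 8.23 and 4.25 CPM on D5 and 5.7, 5.22 and 5.87 CPM on D7 (-0.49 ± 0.52, adjusted p = 0.655), and its D7 range lay inside its D5 range. RELA and JUN, transcription factors of inflammatory signalling, had log2 fold changes of 0.15 ± 0.32 and 0.11 ± 0.25, with adjusted p of 0.852 and 0.861. MMP9, a matrix protease, was variable within both days, at 56, 8.63 and 104 CPM on D5 and 12, 12.3 and 70.4 CPM on D7 (adjusted p = 0.537).

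**Figure D3:**
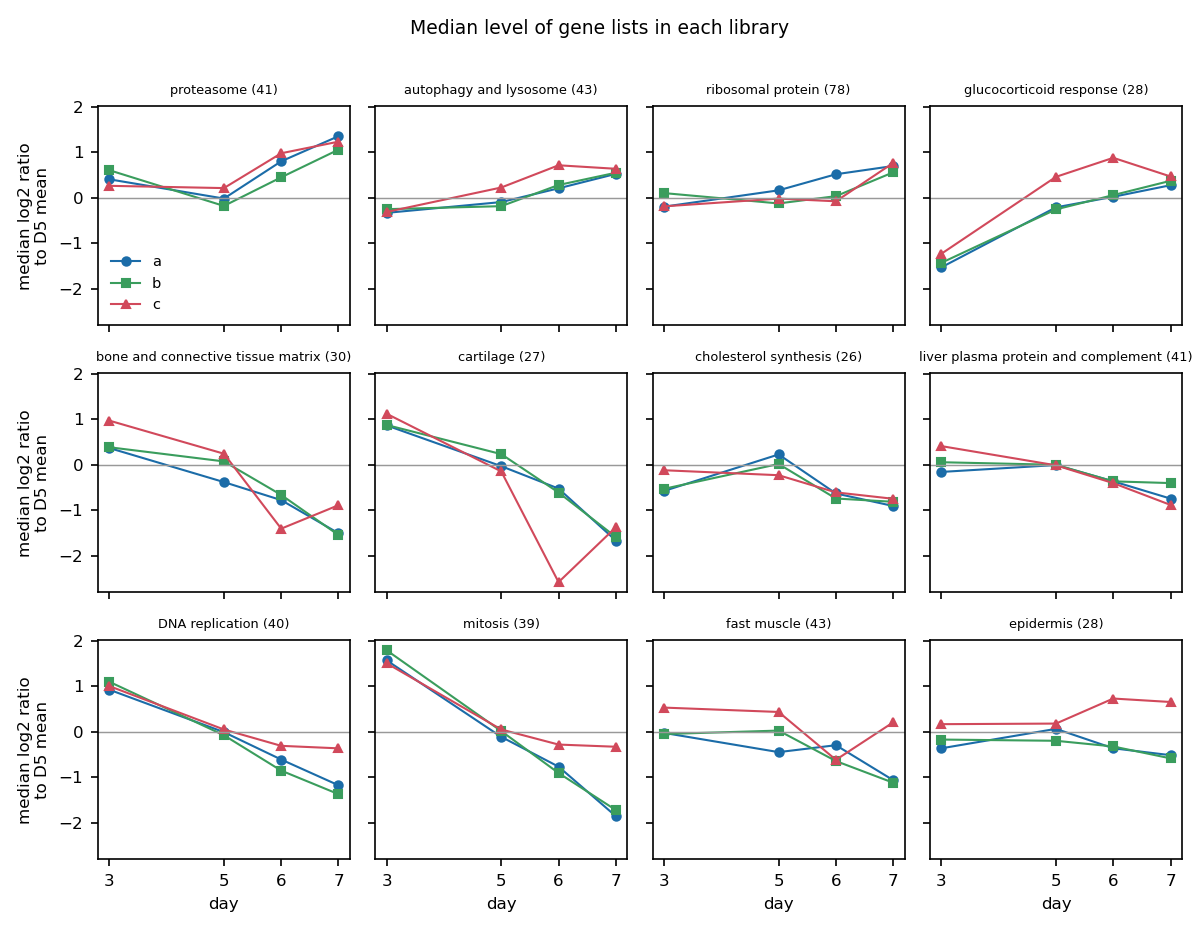
Median over the members of each of several gene lists of log2(CPM + 0.1) relative to the D5 mean, for each a, b and c library of D3, D5, D6 and D7, with the number of members in each title. The proteasome medians on D7 lie between 1.06 and 1.35, the cartilage medians between -1.67 and -1.37, and the mitosis median of D7 c, at -0.33, lies apart from those of D7 a and b.

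Cell division genes were lower on D7, chiefly in the a and b libraries. Of 40 DNA replication genes 19 were called lower (47.5%, median -0.96), and of 39 mitosis genes 20 (51.3%, median -1.21), with all 39 lower in fitted value. Over all genes 3.35% were called lower. The median for mitosis was -1.71 in a and -1.67 in b but -0.35 in c, and for DNA replication -1.22, -1.28 and -0.45. Without the c libraries 28 replication and 37 mitosis genes were called, and without the block 6 and 4. Leaving out D5 a, D5 b, D7 a and D7 b in turn gave 9, 6, 5 and 5 replication genes and 6, 5, 3 and 4 mitosis genes, while leaving out D7 c gave 35 mitosis genes.

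The subunits of the MCM helicase, which opens DNA for copying, were among the called replication genes. MCM6 was at 22.2, 32.1 and 28.6 CPM on D5 and 2.81, 2.89 and 12 CPM on D7 (-2.47 ± 0.37, adjusted p = 0.00202), and MCM3 at 22.1, 25 and 29.8 and 3.46, 3.17 and 12.3 CPM (-2.21 ± 0.30, adjusted p = 0.00126). TOP2A, the topoisomerase that untangles sister chromosomes, went from 33.8, 43.3 and 47.4 to 7.65, 8.6 and 25.9 CPM (-1.71 ± 0.30, adjusted p = 0.0049). In all 3 genes D7 c was several times D7 a and b and still below the lowest D5 library. The condensin genes NCAPH and SMC2 had log2 fold changes of -1.63 ± 0.25 and -1.79 ± 0.33. TOP2A, NCAPH and SMC2 were not called without the block, whereas the MCM genes were.

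Among target genes of p53, a transcription factor of the damage response, 4 of 24 were called higher (16.7%, beside 3.6% over all genes), with a median of 0.15. Without the block 2 were called, without the c libraries 7 higher and 2 lower, and 2, 1 and 3 without D5 a, b and c and 2, 3 and 2 without D7 a, b and c. SESN1, a sestrin that restrains growth signalling under stress, was at 117, 141 and 282 CPM on D5 and 397, 415 and 562 CPM on D7 (1.41 ± 0.20, adjusted p = 0.0016). bbc3, which encodes the pro-apoptotic protein Puma, went from 12.2, 11.2 and 15.21 to 25.9, 29.5 and 31.6 CPM (1.17 ± 0.21, adjusted p = 0.0056), a call lost without D5 b. pmaip1, which encodes the pro-apoptotic protein Noxa, went from 14.7, 11.3 and 23.9 to 27.9, 31.6 and 41.2 CPM (1.04 ± 0.25, adjusted p = 0.0223), a call lost without the block and in 5 of the 6 fits with 1 library left out.

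Genes for proteins that the liver secretes were also called lower. Of 41 plasma protein and complement genes 12 were called lower (29.3%, beside 3.35% over all genes) and the median was -0.61. VTN (ENSDARG00000053831), vitronectin, an adhesive plasma protein, was at 54.4, 60.4 and 51.4 CPM on D5 and 19.6, 18.3 and 18.2 CPM on D7 (-1.56 ± 0.17, adjusted p = 0.000361). tfa, transferrin, which carries iron, went from 1038, 888 and 502 to 153, 309.6 and 112 CPM (-2.12 ± 0.30, adjusted p = 0.00153), and c8a, a part of the complement pore, from 27.8, 26.9 and 21.1 to 8.81, 8.88 and 9.4 CPM (-1.46 ± 0.22, adjusted p = 0.00201). The days did not overlap for any of them, and all 3 calls held without the block, without the c libraries and without any of the 6 libraries. The list count was 8 without the block and 17 without the c libraries, and 7 without D5 b and 5 without D7 a.

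Lipid transport genes were called in both directions, 4 of 28 higher and 5 lower, or 14.3% and 17.9% beside 3.6% and 3.35% over all genes, with a median of -0.48. Without the block 3 and 4 were called, and without the c libraries 7 and 10. Leaving out D5 a gave 2 and 4, D5 b 2 and 3, and D7 a or D7 b 2 and 2. APOB, the structural protein of liver and yolk lipoproteins, went from 137, 136 and 72.5 to 17.2, 24.1 and 10.4 CPM (-2.76 ± 0.36, adjusted p = 0.00108), and apoa1a, of high-density lipoprotein, from 1642, 1678 and 1322 to 509, 407 and 645 CPM (-1.53 ± 0.31, adjusted p = 0.0108). abca1b, a cholesterol exporter, fell from 114, 144 and 119 to 43, 35.3 and 60.2 CPM. LPL (ENSDARG00000087697), the lipase that releases fatty acids from lipoproteins at the vessel wall, rose from 157, 134 and 278 to 641, 685 and 900.1 CPM (1.99 ± 0.23, adjusted p = 0.000432). PLTP, the phospholipid transfer protein, rose from 13.6, 12.9 and 18.9 to 45.7, 46.7 and 71.4 CPM (1.84 ± 0.21, adjusted p = 0.000432), and ABCG1, a sterol exporter, from 8.72, 8.86 and 15.21 to 36, 33.3 and 20 CPM (1.49 ± 0.31, adjusted p = 0.0112). The apoa1a call was lost without D7 a or D7 b, and the ABCG1 call without D5 a, D5 b, D7 a or D7 b.

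Enzymes of fat use and red cell genes had lower calls. Of 28 fatty acid oxidation genes 4 were called lower (14.3%, beside 3.35% over all genes). Among them were CPT2 (-1.27) and HADHA (-1.06), which act inside the mitochondrion. Their calls were lost without D5 b, D7 a or D7 b for CPT2 and without the block for HADHA. CPT1B, of fatty acid import, was called (-1.29) but in none of the 6 fits with 1 library left out. The list count was 1 without the block, 6 lower and 2 higher without the c libraries, 1 without D5 b, D7 a or D7 b and 2 without D5 a, D5 c or D7 c. Of 19 erythrocyte genes 7 were called lower (36.8%, median -0.70), among them SLC4A1 (ENSDARG00000012881), the anion exchanger of the red cell membrane, at 41.9, 46.8 and 47 CPM on D5 and 10.7, 15.5 and 14.7 CPM on D7 (-1.74 ± 0.28, adjusted p = 0.00332). Without the block 2 erythrocyte genes were called, and 3, 2 and 4 without D5 a, b and c and 2 without D7 a or D7 b.

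Structural genes of fast muscle were mostly lower by small amounts, with 38 of 43 below 0 and a median of -0.58. Of the 43, 5 were called lower (11.6%, beside 3.35% over all genes). The median was -0.65 in a, -1.12 in b and -0.09 in c, and 21 were called without the c libraries. Without the block 2 were called, 3, 1 and 2 without D5 a, b and c, and 1, 1 and 10 without D7 a, b and c. CASQ1 (ENSDARG00000038716), calsequestrin, the calcium store of the sarcoplasmic reticulum, was the clearest, at 192, 236 and 203 CPM on D5 and 9.02, 16.6 and 26.9 CPM on D7 (-3.63 ± 0.33, adjusted p = 0.000217). TNNI2 (ENSDARG00000035958), a troponin of fast fibres, went from 62.3, 61.5 and 55.7 to 18.9, 17.2 and 34.8 CPM, and ACTA1 (ENSDARG00000055618), skeletal actin, from 185, 423 and 723 to 96.7, 94.5 and 116 CPM. The TNNI2 call was lost without D5 b, D7 a or D7 b, and the ACTA1 call without the block and without any of the libraries but D5 a.

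Chaperones and folding enzymes of the endoplasmic reticulum were among the genes called lower. Of 26 unfolded protein response genes 7 were called lower (26.9%) and 1 higher (3.85%), beside 3.35% and 3.6% over all genes. The median was -0.32. PDIA6, which forms disulfide bonds in new proteins, went from 102, 86.1 and 65.4 to 47.7, 36.9 and 34.7 CPM (-1.07 ± 0.20, adjusted p = 0.00725), and calr3a, a calreticulin, from 155, 120.1 and 116 to 66.5, 59.8 and 78.4 CPM (-0.94 ± 0.18, adjusted p = 0.00745). SELENOK, a selenoprotein of the same compartment, was at 60.8, 51.9 and 45.3 CPM on D5 and 137, 115 and 76.6 CPM on D7 (1.04 ± 0.17, adjusted p = 0.00299). The 7 lower calls became 3 without the block, 3 without D5 b, and at most 1 without D5 a, D7 a or D7 b. PDIA6 was not called without the block or without D7 b, and calr3a not without D5 a, D7 a or D7 b.

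Circadian clock and hypoxia lists depended on the fit. Of 38 clock genes 7 were called higher (18.4%) and 1 lower (2.63%), beside 3.6% and 3.35% over all genes. However, 0 were called without the block or without D5 a, D5 b, D7 a or D7 b, 6 higher and 3 lower were called without D5 c, and 10 and 1 without D7 c. Without the c libraries 15 were called higher and 13 lower, beside 1664 and 2081 of all 21643 genes tested there. With DESeq2 10 and 2 were called, beside 1203 and 1165 of all 21750 genes. At an unadjusted p below 0.05 the fit with the block had 13 higher and 5 lower, beside 4787 of all 21750 genes in either direction. rorcb, a nuclear receptor of the clock, was at 18.5, 17.3 and 86.4 CPM on D5 and 188, 216 and 104 CPM on D7, and nfil3-5, a repressor of its output, at 25.5, 23.5 and 152 and 329, 368 and 183 CPM. For both genes the a and b libraries rose strongly between days and the c libraries little. Of 30 hypoxia genes 5 were called higher and 3 lower. The mitophagy receptor gene BNIP3, at 13, 15 and 27.6 CPM on D5 and 39.2, 39.2 and 40.3 CPM on D7 (1.19 ± 0.20, adjusted p = 0.00355), and NDRG1 (ENSDARG00000010420), a stress-induced gene, at 61.1, 84.2 and 327 and 558, 689 and 595 CPM (2.29 ± 0.47, adjusted p = 0.0112), were higher. The glycolytic enzyme genes ALDOA (ENSDARG00000011665), HK1 and LDHA were lower, with log2 fold changes of -1.25 ± 0.24, -1.05 ± 0.21 and -0.82 ± 0.18. Without the block 0 hypoxia genes were called higher and 1 lower, and without the c libraries 5 and 7. Leaving out D5 a, b and c gave 2 and 2, 2 and 0, and 3 and 3, and leaving out D7 a and b gave 1 and 2, and 1 and 1. HIF1A itself was not called (-0.54 ± 0.24, adjusted p = 0.217).

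In the nervous system 5 of 29 neural progenitor genes (17.2%) and 3 of 30 neuron genes (10%) were called lower. The share over all genes was 3.35%, and the list medians were -0.43 and -0.29. Without the block 1 and 2 were called. Without any of D5 a, b, c, D7 a or b 1 progenitor gene was called, and 2 without D7 c, while 1 neuron gene was called without D5 b or D7 a and 2 without any of the others. gap43, a protein of growing axons, was at 47, 47 and 42.6 CPM on D5 and 20.6, 20 and 19.9 CPM on D7 (-1.18 ± 0.16, adjusted p = 0.00114), and dlb, a Delta ligand that keeps progenitors undivided in fate, at 11, 13.3 and 12 and 4.48, 5.22 and 3.54 CPM (-1.47 ± 0.23, adjusted p = 0.00282), and both calls held in all these fits. Other called members were not stable, with INSM1 (ENSDARG00000091756) and HES6 (ENSDARG00000007097), transcription factors of neural precursors, and STMN2 (ENSDARG00000070537), of growing axons, lost without the block and in at least 5 of the 6 fits.

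A few calls came from pigment, gut and interferon genes. Of 26 pigment cell genes 3 were called lower (11.5%, beside 3.35% over all genes). They included gch2, which starts pteridine pigment synthesis, at 45.9, 48.5 and 77.9 CPM on D5 and 1.8, 2.61 and 14.6 CPM on D7 (-3.33 ± 0.55, adjusted p = 0.00355). The pigment count was 1 without the block, 12 without the c libraries, 1 without D5 a, D5 b, D7 a or D7 b and 7 without D7 c, and the other 2 calls, aox5 and pnp4a, were lost without the block. Of 36 intestine genes 3 were called lower (8.33%), led by AGR2, a secretory protein chaperone, at 146, 76.4 and 69.2 and 32.8, 25.7 and 28.9 CPM (-1.71 ± 0.29, adjusted p = 0.00406). The intestine count was 1 without the block, 11 lower and 1 higher without the c libraries, 1 without any of D5 a, b, c, D7 a or b and 2 without D7 c, and the calls of ANPEP (ENSDARG00000036809) and LCT (ENSDARG00000092404), brush border enzymes, were lost without the block. Of 15 interferon response genes 2 were called higher (13.3%, beside 3.6% over all genes). They were b2m, the light chain of MHC class I, from 2.12, 2.82 and 2.92 to 15.4, 11.6 and 10.8 CPM (2.28 ± 0.34, adjusted p = 0.00198), and SOCS1, a brake on cytokine signalling, from 13.2, 11.9 and 22.5 to 33.2, 36.1 and 72.7 CPM (1.55 ± 0.22, adjusted p = 0.00156).

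Smaller numbers were called in the remaining lists. Of 28 oxidative stress genes 3 were called higher (10.7%) and 1 lower (3.57%), beside 3.6% and 3.35% over all genes. KEAP1, the sensor that holds back the antioxidant response, was at 38.7, 45.6 and 54.5 CPM on D5 and 86.8, 80.8 and 123 CPM on D7, though not called without D5 a. The list counts were 2 and 0 without the block or without D7 b or D7 c, 1 and 0 without D5 a or D5 b, 2 and 1 without D5 c and 1 and 1 without D7 a. Of 33 amino acid metabolism genes 3 were called higher (9.09%) and 2 lower (6.06%). Without the block edgeR called 0 higher and 1 lower, with TAT, prodhb and ARG2 lost, without the c libraries 7 and 4, and without D5 b or D7 b 3 and 1. GPT2, an alanine aminotransferase, was at 41.5, 42.5 and 44.2 CPM on D5 and 23.1, 19 and 17.8 CPM on D7 (-1.09 ± 0.17, adjusted p = 0.00286), and ARG2, an arginase, at 158, 172 and 350.3 and 552, 463 and 633 CPM (1.38 ± 0.25, adjusted p = 0.00503). The feeding list had 1 call of 15 (6.67%), agrp, the hypothalamic peptide gene that drives food intake, at 4.17, 3.74 and 5.25 CPM on D5 and 13.5, 13.9 and 7.67 CPM on D7 (1.37 ± 0.37, adjusted p = 0.0401), and that call was lost without the block and without D5 a, D5 b, D7 a or D7 b. Of 25 heat shock genes 2 were called lower (8.0%), among them SERPINH1 (ENSDARG00000019949), the chaperone of collagen folding, from 187, 159 and 39.5 to 25.1, 24.7 and 37.3 CPM (-1.85 ± 0.44, adjusted p = 0.0227), a call lost in the same fits. Of 88 nuclear respiratory chain genes 1 was called lower (1.14%, below the 3.35% over all genes), and of 13 genes of the mitochondrial genome 1 (7.69%).

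In the eye, 1 of 25 lens genes was called higher, 1 of 18 rod genes lower and 1 of 22 cone genes lower. These shares (4%, 5.56% and 4.55%) were near those over all genes, 3.6% higher and 3.35% lower. The list medians were 0.55, -0.19 and -0.77, with 21 lens genes higher and 13 rod and 18 cone genes lower in fitted value. NR2E3, a nuclear receptor that fixes rod identity, was at 10.6, 13.9 and 8.24 CPM on D5 and 4.4, 5 and 3.83 CPM on D7 (-1.30 ± 0.28, adjusted p = 0.0147). ARR3 (ENSDARG00000056511), the cone arrestin, went from 291, 317 and 466 to 116, 120.1 and 339 CPM (-1.02 ± 0.25, adjusted p = 0.0253). Both calls were lost in 5 of the 6 fits with 1 library left out, NR2E3 holding only without D5 c and ARR3 only without D7 c, and ARR3 was not called without the block. The lens call, crygm2d2, was lost without the block and in all 6 of those fits.

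In 10 of the 53 lists edgeR called 0 of the members, 191 genes in all. These lists were the stress axis, neutrophil, thymus and T cell, vitellogenin, exocrine pancreas, endocrine pancreas, heart, endothelium, epidermis and ionocyte lists. Of the 191 genes 26 had an unadjusted p below 0.05 and DESeq2 called 4. Over all 21750 genes these counts were 4787 and 2368. In the epidermis and the exocrine pancreas the letters moved apart. The epidermis median was -0.60 in a, -0.35 in b and 0.55 in c, and krt5, a basal keratin, was at 1465, 1556 and 1386 CPM on D5 and 288, 282 and 1269 CPM on D7. The exocrine pancreas median was 0.09 in a, -0.13 in b and 1.08 in c. The part of these tissues in the other differences of the c libraries was not tested.

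The largest changes were picked by size among called, named genes without overlap between days. The rises began with genes that were near absent on D5. defbl2, a defensin-type peptide, was at 0, 0 and 0.199 CPM on D5 and 3.46, 3.67 and 2.56 CPM on D7. Of the 784 genes called higher, 20 lay below 1 CPM in every D5 library, and the share of all genes tested that lay so low was not counted. A gene this low on D5 can pass the filter on low counts through the days where it is high, so such rises are partly built in. PPP1R27, a regulator of protein phosphatase 1, went from 2.82, 2.94 and 2.33 to 76.9, 80.3 and 46.9 CPM (4.74 ± 0.63, adjusted p = 0.00114). CYP24A1, which inactivates vitamin D, was at 10.25, 5.58 and 154 CPM on D5 and 302, 326 and 582 CPM on D7 (4.29 ± 0.63, adjusted p = 0.00194). Its D5 c library stood far above D5 a and b, and the call was lost without the block. The gene retreg1, a receptor for autophagy of the endoplasmic reticulum, went from 1.47, 0.978 and 1.66 to 24.3, 21.1 and 8.35 CPM (3.68 ± 0.58, adjusted p = 0.00262). The gene larp6b, whose mammalian relative binds collagen mRNAs, was at 0, 0 and 0.664 CPM on D5 and 4.98, 3.03 and 8.95 CPM on D7, and the microRNA gene dre-mir-29b-1, of a family that in mammals represses collagen mRNAs, at 0.513, 0.518 and 1.33 and 4.19, 4.37 and 9.78 CPM. Both calls were lost without the block. The small heat shock protein gene hspb9l rose from 49.5, 42.2 and 45.5 to 576, 354 and 83.8 CPM, with D7 a highest and D7 c lowest of its day.

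Of the falls, leap2, a liver-expressed antimicrobial peptide, was the largest by this rule, from 27, 11.5 and 22.8 to 0.361, 0.352 and 1.65 CPM (-4.73 ± 0.42, adjusted p = 0.000217). apcs, the serum amyloid P component, fell from 26.3, 8.46 and 16.1 to 0.0722, 0.916 and 0.978 CPM (-4.70 ± 0.64, adjusted p = 0.00127), and slc41a2a, of a magnesium transporter family, from 10.4, 11.4 and 4.58 to 1.44, 1.06 and 0.376 CPM (-3.19 ± 0.29, adjusted p = 0.000217). scpp9, a secreted calcium-binding phosphoprotein, went from 11.4, 16.2 and 9.17 to 0.217, 2.54 and 0.827 CPM (-3.38 ± 0.72, adjusted p = 0.0132), a call lost without D5 b or D7 a. The calls of leap2, apcs and slc41a2a held without the block, without the c libraries and without any of the 6 libraries.

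For most called genes D6, sampled between the 2 days, lay between them in its mean over a, b and c. Its mean CPM fell between the D5 and D7 means for 1470 of the 1513 called genes (97.2%), 765 of those called higher and 705 of those called lower, against 10845 of all 21750 genes (49.9%). On a log scale the D6 mean stood 55.6% of the way from D5 to D7 at the median called gene, with quartiles of 42.6% and 68.2%. Since the genes were selected on the difference between D5 and D7, an intermediate D6 is a description and no test. The called bone and connective tissue matrix genes were 69.2% of the way by D6, cholesterol synthesis 65.9%, proteasome 61.0%, cartilage 60.8% and mitosis 52.0%. These values rest on day means, and the letters differed. The median of the whole matrix list relative to the D5 mean was -1.404 in D6 c, below the -0.889 of D7 c. In a and b it was -0.777 and -0.663 on D6 and -1.505 and -1.544 on D7. For cartilage the D6 c library was the lowest of the D3, D5, D6 and D7 libraries, with a list median of -2.58 relative to the D5 mean against -0.52 in D6 a and -0.61 in D6 b. The 1-day steps had few calls, 42 from D5 to D6 (0.193%), 40 of which were also called in the same direction from D5 to D7, and 2 from D6 to D7 (0.0092%). The 2 were hspb6, a small heat shock protein of muscle, which fell from a D6 mean of 62.5 to a D7 mean of 16.9 CPM, and the unnamed gene si:ch211-198i6.4, which rose from 3.98 to 26.1 CPM.

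**Figure D4:**
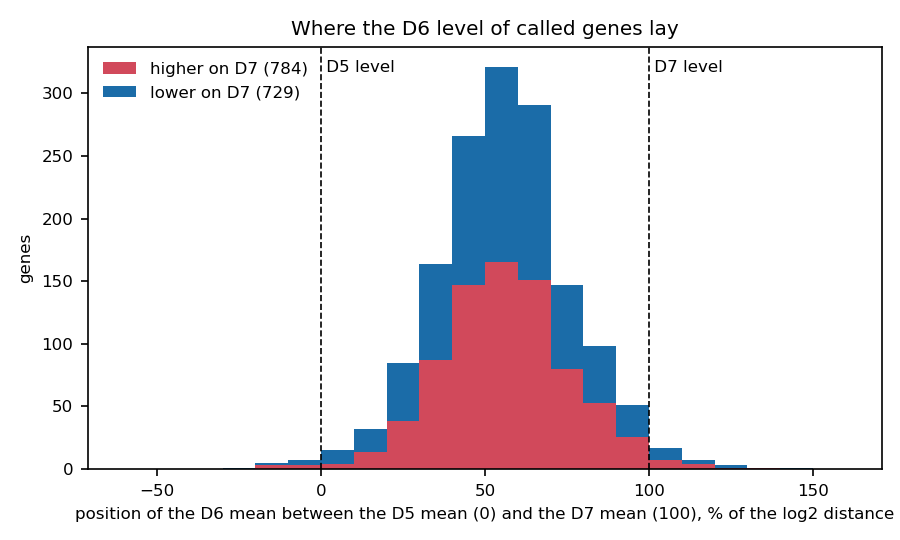
Number of called genes by the position of the D6 mean on the way from the D5 mean (0%) to the D7 mean (100%) on a log2(CPM + 0.1) scale, for genes called higher and lower on D7; 1 called gene lies outside the drawn range. Both distributions are centred near the middle, with a median of 55.6% over all called genes.

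The late step was set against the early step, D3 to D5, by testing the difference of the changes in the same fit. The steps share the D5 libraries, so a high or low D5 value moves both in opposite directions, and the changes are given side by side. The early step had 2981 genes called (13.7%). The changes differed for 144 genes (0.662%), of which 117 (0.538%) had the more negative late change and 27 (0.124%) the more positive. Of the 117, 103 had a fitted rise from D3 to D5 and a fitted fall from D5 to D7, and 33 were called in both steps. Of the 27, 25 had a fitted fall and then a rise, and 8 were called in both. Without the block 37 genes differed and without the c libraries 2017. Leaving out D5 a gave 35, D5 b 17, D5 c 58, D7 a 60, D7 b 71 and D7 c 139.

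Several genes of cholesterol synthesis rose before they fell. From D3 to D5 8 of its 26 genes were called higher (30.8%, beside 6.67% over all genes) and the list median was 0.33 for that step, against -0.97 from D5 to D7. Differences are given as the late minus the early log2 change, with SE. For CYP51A1, at 15.15, 16.7 and 25.1 CPM on D3, the difference was -5.31 ± 0.51 (adjusted p = 0.000594), and for SQLE, at 3.37, 6.05 and 4.79 CPM on D3, -4.89 ± 0.60 (adjusted p = 0.00355). 7 genes of the list differed in this way, beside 0.538% over all genes. MYLIP (ENSDARG00000055118), a ubiquitin ligase that in mammals removes the LDL receptor, was at 10.4, 9.85 and 15.9 CPM on D3, 68.1, 68.6 and 62.5 on D5 and 28.4, 28.3 and 33.1 on D7, with a difference of -3.64 ± 0.30 (adjusted p = 0.00027). These 3 differences held without the block and without any of the 6 libraries.

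The proteasome had the opposite course. Its list median was -0.44 from D3 to D5, where 5 of 41 genes were called lower (12.2%, beside 7.03%), and 1.24 from D5 to D7. Between the steps 15 members differed, all with the more positive late change, beside 0.124% over all genes. PSMA6 (ENSDARG00000019398) was at 66.4, 70.8 and 47.2 CPM on D3, with a difference of 2.25 ± 0.33 (adjusted p = 0.00808), and PSMD11 (ENSDARG00000005134) at 57.1, 58.5 and 55.3 CPM, with 1.87 ± 0.29 (adjusted p = 0.0104). For both, the D7 values exceeded the D3 values. The differences of PSMA2 and USP14 missed the threshold without the block, and those of PSMA6, PSMD11, PSMA2 and USP14 each missed it in 2 to 4 of the 6 fits with 1 library left out.

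Among the other lists described above, glucocorticoid response had 21 of 28 genes called higher from D3 to D5, with a median of 1.42. From D5 to D7 these were 6 and 0.22. Over all genes 6.67% were called higher in the early step and 3.6% in the late step. In the list 3 members had a more negative late change, beside 0.538% over all genes. FKBP5 had a change of 2.79 from D3 to D5 (adjusted p = 0.00113) beside -0.39 from D5 to D7, a difference of -3.18 ± 0.62 (adjusted p = 0.0336). FBXO32 had 4.15 and then 2.29, and igfbp1b 3.40 and then 3.31, without a difference past the threshold in either. Over all genes 7.03% were called lower in the early step and 3.35% in the late step. Mitosis genes had medians of -1.67 and -1.21 in the 2 steps, with 39 and 20 of 39 called lower. DNA replication genes had -1.09 and -0.96, with 32 and 19 of 40. Cartilage genes had medians of -0.89 and -1.70, with 3 and 12 of 27 called lower, and edgeR found 0 members differing between the steps, 2 at an unadjusted p below 0.05.

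**Figure D5:**
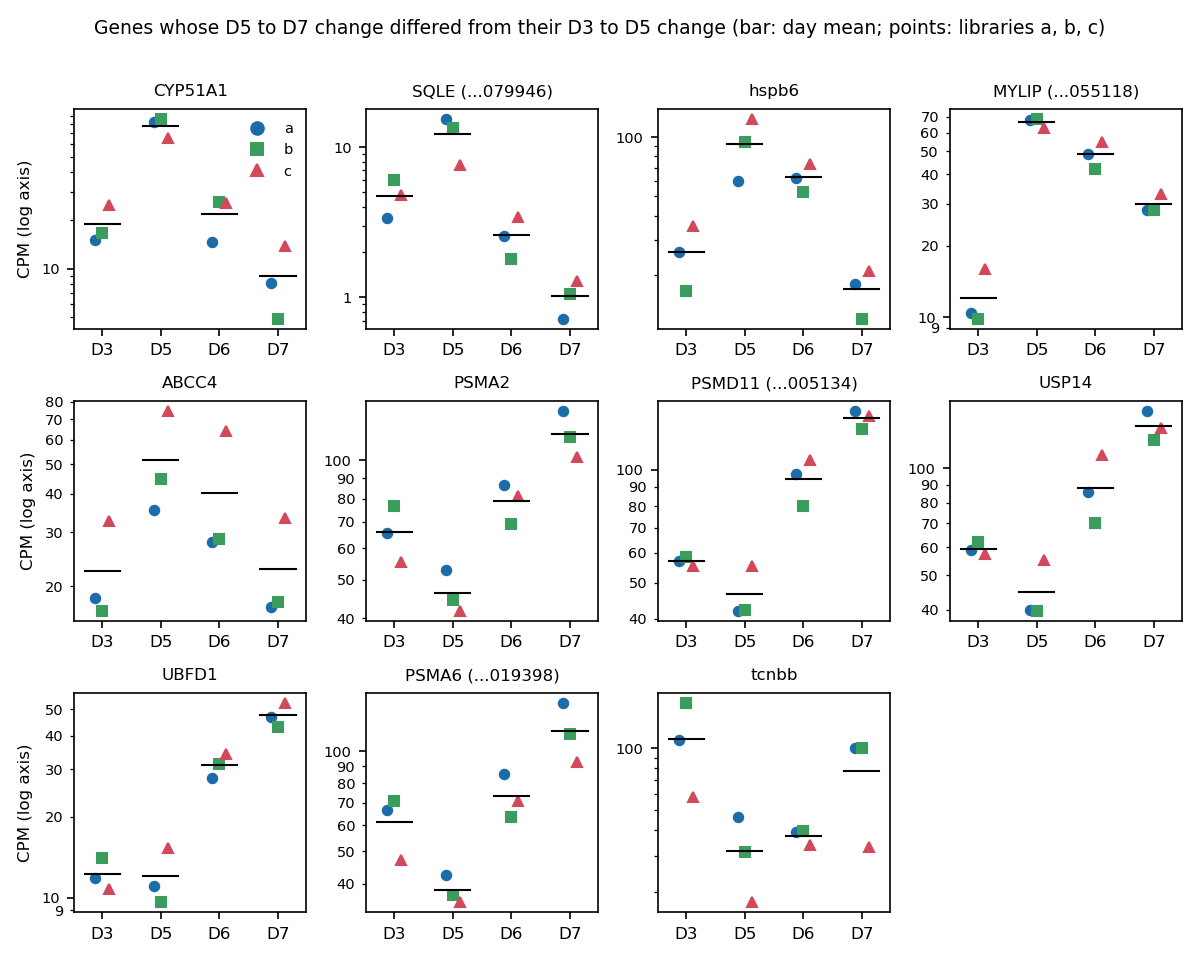
CPM (log axis) on D3, D5, D6 and D7 of 11 named genes with a difference between the D5 to D7 and the D3 to D5 change, with the a, b and c libraries as points and the day mean as a bar. CYP51A1, SQLE, hspb6, MYLIP and ABCC4 peak on D5, and PSMA2, PSMD11, USP14, UBFD1, PSMA6 and tcnbb have their lowest mean on D5.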

How the data were processed

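RNA sequencing of whole DEX-exposed larvae was used as the raw gene counts that the authors deposited, 1 table for the DEX course. Submitters' processing notes name Trim Galore, STAR 2.7.8, HTSeq 0.13.5 and GRCz11. The annotation release and strand setting are not given in the sources used here, so overlapping genes and near-identical copies are uncertain. Of 32520 IDs 29201 had a symbol, and genes that share a symbol are given by ID.

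Counts were analysed in R 4.3.3 with edgeR 4.0.16 (filterByExpr, TMM, quasi-likelihood test, Benjamini-Hochberg adjustment over 21750 genes), with day and replicate letter as terms over 15 DEX libraries. The procedure was tested on simulated data in which the c libraries differed from a and b alike on every day. That test does not cover a letter effect that varies between days. The letter was taken as a block by the rule of the comparison, not because of the correlations that follow. Deviations from the day means correlated between D5 and D7 libraries of the same letter (0.48 in a, 0.46 in b, 0.68 in c). These deviations cancel out within a day, so negative values for c partly follow from c standing apart. Libraries a and b correlated as well (0.46 to 0.47), and c negatively with both (-0.60 to -0.52), so the block chiefly separates c. No pair of replicates agreed within sampling noise.

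The members and lists were chosen with earlier results of these data known. The rule for named genes took the 12 largest called rises and falls without overlap and with a mean of at least 1 CPM. It also took up to 3 called members of each list in each direction and the list drawn up around the study. The last part was the 6 genes in each direction with the smallest p for a difference between steps. FKBP5, KLF9, LSS, MSMO1, SC5D, PSMA5, PSMB4, PSMC1, PSMD14, MAP1LC3A, ulk1a, LAMP1, col1a1a and si:ch211-198i6.4 were added after their values were seen. Alternatives were the fit without the block, D5 and D7 alone, DESeq2 1.42.0, RLE scaling, other filters, and leaving out libraries. A block of c against a and b was chosen after seeing the data. A few genes that the rule names are not reported here.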

Additional observations from a re-analysis of the deposited data

Results flagged for a closer look

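The change from D5 to D7 differed from the change from D3 to D5 for 144 genes by the test of the difference itself, and 11 named ones follow as differences of the log2 changes. More negative in the late step were CYP51A1 (-5.31) and SQLE (ENSDARG00000079946; -4.89), enzymes of cholesterol synthesis, hspb6 (-4.32), a small heat shock protein, MYLIP (ENSDARG00000055118; -3.64), a ubiquitin ligase, and ABCC4 (-2.39), an efflux transporter. More positive were tcnbb (3.02), which encodes a cobalamin-binding protein, PSMA6 (ENSDARG00000019398; 2.25), PSMD11 (ENSDARG00000005134; 1.87) and PSMA2 (1.83), subunits of the proteasome, UBFD1 (2.04) and USP14 (1.99).

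hspb6 was at 26.1, 16.6 and 35.5 CPM on D3, 59.7, 94.2 and 124 on D5 and 18.1, 12 and 20.8 on D7, whereas tcnbb was at 109, 167 and 57.9 CPM on D3, 46.1, 31.2 and 17.7 on D5 and 99.9, 99.9 and 32.9 on D7. ABCC4 was at 18.2, 16.6 and 32.5 CPM on D3, 35.3, 44.8 and 74.7 on D5 and 17.1, 17.8 and 33.2 on D7. Without the block the differences of tcnbb (adjusted p = 0.28), ABCC4 (0.299), USP14 (0.0527) and PSMA2 (0.057) were no longer past the threshold of edgeR's quasi-likelihood test. The D5 libraries enter both changes, and they were not replaced by independent ones here.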

How the results depend on the processing

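Counts moved with the block for the replicate letter, with the libraries used and with the tool. The main count was 1513 (784 higher, 729 lower; 144 differing between steps). Without the replicate block the pairing was dropped and 497 genes were called (270 higher, 227 lower), with 37 differing between steps. With D5 and D7 alone and no block 162 were called (76 and 86), and with the block 1798. DESeq2 called 2368 (1203 and 1165; 490 between steps), 1493 of them shared. Without the c libraries 3745 were called (1664 and 2081; 2017 between steps). A block of c against a and b alone, chosen after seeing the data, gave 1998 calls, 1512 shared, and 263 between steps. Leaving out any of the 6 libraries gave 445 to 1470 calls, 254 to 640 higher and 172 to 830 lower, and 17 to 139 between steps. RLE scaling, no filter and a minimum of 10 counts gave 1511, 1486 and 1579.

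The rule gave 175 genes, and part of them were not called in the main fit. Of those that were called, 65 lost the call without the block, and 20 to 57 when a library was left out. Direction turned for ACP5 (ENSDARG00000019763), from -0.06 to 0.037 without the c libraries, 0.24 without D5 c and 0.13 without D7 b (-0.28 to 0.24 over the 6 libraries left out), and for mmp13a (ENSDARG00000012395), from -0.35 to 0.060 without D5 a and 0.02 without D7 a (-1.12 to 0.060), and neither gene was called in the main result. The cause was not tested in any of these. With 3 libraries a day, a difference of the c libraries from a and b of 0.87 to 1.13 on the log2 scale, and no vehicle group, these libraries limit how firmly a single gene can be called.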

Other observations

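Several groups of genes outside the lists also differed between D5 and D7. They were put together after their values were seen, so they are given as values and support nothing. Partners of the proteasome were higher on D7, with TXNL1, a thioredoxin-like protein bound to its cap, at 48.3, 52.4 and 112 CPM on D5 and 326, 228 and 512 CPM on D7 (2.36 ± 0.26), and UFD1, which with NPLOC4 delivers substrates to the segregase p97, at 64, 52.2 and 84.7 and 247, 209 and 197 CPM (1.72 ± 0.20). NPLOC4 changed by 1.08 ± 0.18, and SEM1, a small cap subunit, by 1.34 ± 0.20. Of the IDs with the symbol PSME4, a proteasome activator, ENSDARG00000087911 changed by 2.23 ± 0.32 and ENSDARG00000018742 by 0.06 ± 0.18 (adjusted p = 0.894). Genes of ribosome assembly were higher as well, among them RRP12 (1.42 ± 0.19), PNO1 (1.28 ± 0.18), NMD3 (1.18 ± 0.20) and DDX21 (1.16 ± 0.19).

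Muscle genes outside the lists went both ways. STYXL2, a pseudophosphatase of striated muscle, was at 30.8, 55 and 124 CPM on D5 and 335, 261 and 739 CPM on D7 (2.73 ± 0.25), and TRIM55, a relative of the MuRF1 ligase, rose by 2.18 ± 0.23. tcap, a cap protein of titin, was at 34.5, 46.4 and 139 CPM on D5 and 7.22, 7.47 and 31.6 CPM on D7 (-2.31 ± 0.43), and CASQ2, the cardiac calsequestrin, at 70.4, 91.3 and 122 and 8.59, 10.9 and 28.4 CPM (-2.68 ± 0.28). Chromatin genes tied to cell division had lower values, with UHRF1 (-1.30 ± 0.22) and DNMT3B (-1.41 ± 0.23) of DNA methylation, the helicase HELLS (-1.77 ± 0.26) and the histone methyltransferase EZH2 (-1.18 ± 0.18). Of one-carbon metabolism, MTR, the methionine synthase, changed by -1.66 ± 0.28 and MAT1A, which makes S-adenosylmethionine, by -1.13 ± 0.18, and GATM, the first enzyme of creatine synthesis, by -2.42 ± 0.35.

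The IDs that share the symbol MYLIP moved in opposite directions. MYLIP (ENSDARG00000008859) went from 32.7, 33.7 and 64.2 to 98.5, 97.4 and 155 CPM (1.46 ± 0.15, adjusted p = 0.000306), and MYLIP (ENSDARG00000055118) from 68.1, 68.6 and 62.5 to 28.4, 28.3 and 33.1 CPM (-1.16 ± 0.18, adjusted p = 0.00265), by edgeR's quasi-likelihood test.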
